A study of Mus musculus with 44 samples.

Results

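Enteroendocrine cells are the scattered hormone-secreting cells of the stomach and gut lining, and the genes described here are 31 that build them: 9 for granins and prohormone processing, 10 for transcription factors, 10 for peptide hormones and 2 for amine synthesis. The members were taken by name from the 19733 gene rows of a raw RNA-seq count table, and all 31 were found. The table holds 20 bulk libraries of C57BL/6 mouse organoids, which are epithelial stem cell cultures that grow as small hollow structures. Of these, 11 form an experiment on lines and 9 an experiment on an enhancer, and the experiments were kept separate. In the experiment on lines, isogenic gastric organoids carried a lentivirus for the intestinal transcription factor CDX2 (3 lines), for the endodermal transcription factor HNF4A (3 lines) or for GFP, a fluorescent protein used as a neutral insert (3 lines), and 2 lines of unmodified small intestine organoids served as an intestinal comparison. In the experiment on the enhancer, all 9 libraries came from stomach antrum organoids that overexpressed HNF4A, so the wild-type ones carry that change too. They were homozygous (3), heterozygous (3) or wild type (3) for a CRISPR-Cas9 germline deletion of an enhancer on the 3' side of Cdx2. The labels number the lines but do not say whether they came from separate animals, and the labels do not name the promoter of the lentiviral inserts. P-values therefore measure the spread between these libraries, which may be partly technical. A field of the labels calls the lentiviral lines small intestine as well. Their tissue field and titles were followed here. The summed level of 10 gastric epithelial genes was 265 to 2102 CPM in the CDX2 lines and 1815 to 6014 CPM in the HNF4A lines. It was 2914 to 9004 CPM in the GFP lines, above all CDX2 lines, and 1.40 to 11.5 CPM in the small intestine organoids.

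Endocrine cells arise from epithelial progenitors that switch on Neurog3, a basic helix-loop-helix factor that Notch signalling holds back in neighbouring cells. Neurod1, Pax4, Pax6, Insm1, Isl1, Nkx2-2, Rfx6, Fev and Lmx1a then act in the steps that settle which hormone a cell makes. Mature cells pack peptide hormones with acidic granin proteins into dense-core granules, where prohormone convertases and carboxypeptidase E trim the precursors. Gastrin, somatostatin and ghrelin are typical of the stomach, whereas secretin, cholecystokinin, GIP, proglucagon and neurotensin are typical of the intestine. Serotonin-making enterochromaffin cells occur in both, and use Tph1 and Ddc.

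The libraries held 6180498 to 11465309 counts, so 3 counts, the limit that a count of 0 allows, stood for 0.256 to 0.473 CPM (read counts scaled to a common library size by TMM within each experiment). Cdx2 itself had 62.0 to 288 CPM in the CDX2 lines, 22.6 to 50.7 in the HNF4A lines and 272 to 282 in small intestine organoids, against 3.19 to 7.44 in the GFP lines. In the enhancer experiment it had 0.199 to 1.36 CPM in homozygous and 5.55 to 18.4 CPM in heterozygous libraries, against 16.7 to 58.5 CPM in wild-type libraries. Hnf4a had 289 to 502 CPM in the HNF4A lines, against 95.7 to 158 CPM in the GFP lines. It also had 186 to 441 CPM in the CDX2 lines, which overlap the HNF4A lines. The summed level of 6 epithelial genes was between 3812 and 15501 CPM in every library. It was 8041 to 15501 CPM in the CDX2 lines and 7752 to 11541 CPM in the HNF4A lines, all above the GFP lines (6793 to 7040 CPM). The part of these sums in the endocrine levels was not tested. Ins1, Ins2, G6pc2 and Slc30a8, which mark the pancreatic islet, were at 0 in all 20 libraries. The endocrine genes were low in most libraries. Only 11 of 31 reached 5 CPM in any library, and 23 in the lines and 16 in the enhancer experiment had enough counts to be tested (7 in neither). Reads of Chgb, Cpe and Ddc made up 60.5% to 94.8% of the reads of all members. Single libraries stood apart: CDX2 line 2 was the highest of its group for 18 of 24 members with at least 10 reads in the group, HNF4A line 3 for 17 of 20, and small intestine line 2 for 15 of 19.

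The 5 promoters printed here belong to Chgb, Pcsk1, Scg2, Sct and Tph1, members whose levels set the CDX2 lines apart by at least 1 of the tests below. Each is the 250 bases before the RefSeq transcript start on build GRCm38.p6, read 5' to 3' on the gene's own strand: Chgb at chr2:132781392-132781641 (plus), Pcsk1 at chr13:75089607-75089856 (plus), Scg2 at chr1:79440027-79440276 (minus), Sct at chr7:141279134-141279383 (minus) and Tph1 at chr7:46672538-46672787 (minus). Capitals mark matches, on either strand, to TGACGTCA (the cyclic AMP response element), to CNATAAA (letters of a CDX-type site) and to CAAAGNCCA (letters of an HNF4-type site). All 5 hold such a match. Cck, Chga, Ddc and Pyy, also called in the CDX2 lines by at least 1 test, had none in their promoters and are not printed. Another RefSeq promoter of Tph1, also without a match, is not printed either.
Chgb: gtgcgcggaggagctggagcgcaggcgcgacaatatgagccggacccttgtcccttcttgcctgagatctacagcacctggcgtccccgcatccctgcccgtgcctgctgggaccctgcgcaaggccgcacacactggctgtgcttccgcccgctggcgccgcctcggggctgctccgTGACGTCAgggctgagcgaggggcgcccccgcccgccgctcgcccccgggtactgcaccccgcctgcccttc
Pcsk1: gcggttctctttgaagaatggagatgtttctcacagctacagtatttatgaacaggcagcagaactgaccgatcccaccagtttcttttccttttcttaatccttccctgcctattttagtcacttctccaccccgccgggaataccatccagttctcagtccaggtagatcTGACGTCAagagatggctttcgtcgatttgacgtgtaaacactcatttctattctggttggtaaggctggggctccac
Scg2: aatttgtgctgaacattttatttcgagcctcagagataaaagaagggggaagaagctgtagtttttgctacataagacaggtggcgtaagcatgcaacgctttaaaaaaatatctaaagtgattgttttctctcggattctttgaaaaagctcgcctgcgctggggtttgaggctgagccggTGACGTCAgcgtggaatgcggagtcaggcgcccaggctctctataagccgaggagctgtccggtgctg
Sct: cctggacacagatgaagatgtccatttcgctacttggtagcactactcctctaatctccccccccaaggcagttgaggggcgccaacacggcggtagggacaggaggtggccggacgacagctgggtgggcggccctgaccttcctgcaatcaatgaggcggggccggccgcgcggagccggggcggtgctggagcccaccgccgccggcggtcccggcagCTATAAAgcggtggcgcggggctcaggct
Tph1: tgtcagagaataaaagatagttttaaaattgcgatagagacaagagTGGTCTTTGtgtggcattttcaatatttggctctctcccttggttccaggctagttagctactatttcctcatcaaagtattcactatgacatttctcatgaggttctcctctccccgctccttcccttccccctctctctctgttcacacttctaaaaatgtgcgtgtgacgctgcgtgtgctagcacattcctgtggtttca

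RefSeq promoters of 300 bases, from 250 before to 50 after the start, were found for 28 of 31 members, as 35 promoters. TGACGTCA lay in 5 of these 35, those of Chgb, Pax6, Pcsk1, Scg2 and Sst, 48 to 78 bases before the start. It lay in 1.79% of all 32851 mouse promoters in the table, and it was added to the search after the promoters had been read. CNATAAA lay in 3 of 35 (Fev, Pax6 and Sct) and in 10.9% of all promoters. The match in Sct, 29 bases before the start, holds the letters TATAAA of a TATA box, which lie in 13.6% of all promoters. CAAAGNCCA lay in 1 of 35, that of Tph1, 204 bases before the start, and in 1.98% of all. CAGNTG, a core sequence bound by basic helix-loop-helix factors such as NEUROG3, lay in 20 of 35 and in 51.4% of all. These matches are letters in a window, and no binding was measured.

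**Figure D1:**
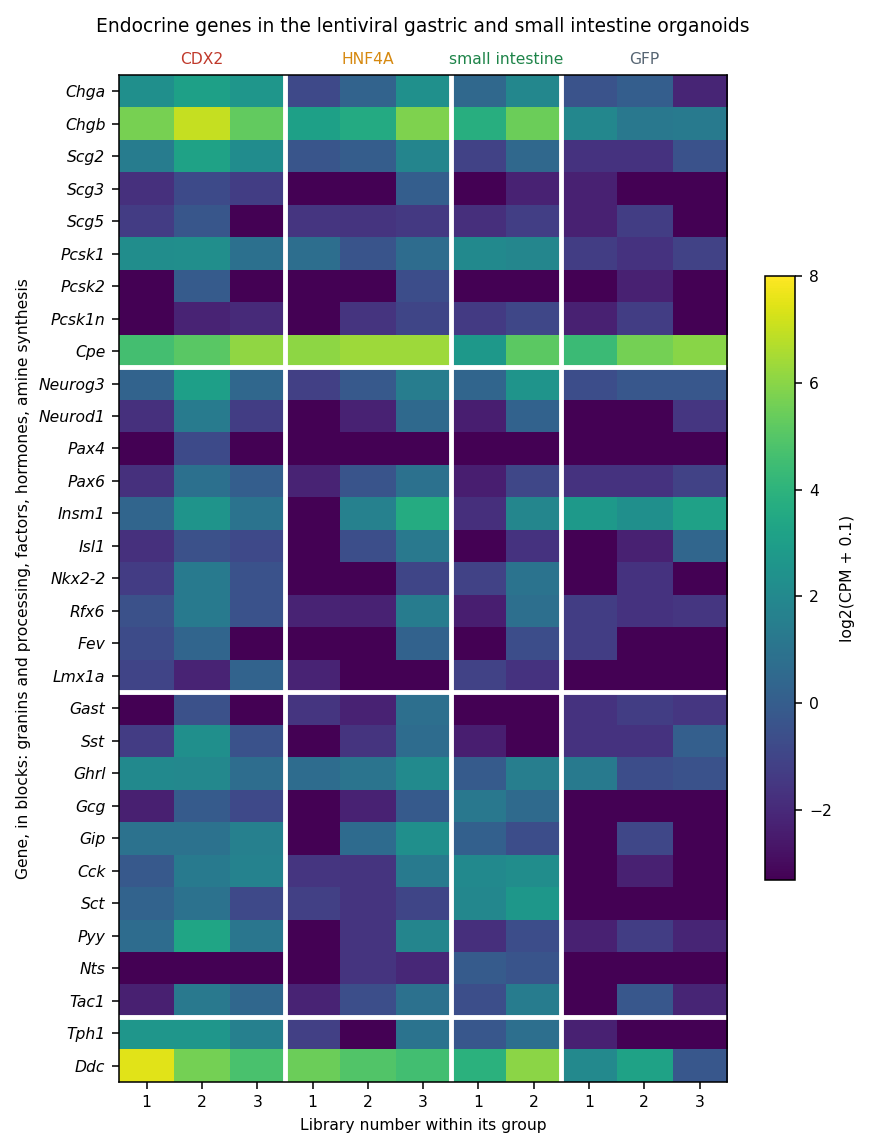
Level of the 31 endocrine genes in the 11 libraries of lines, as log2(CPM + 0.1), with genes in rows by role and libraries in columns (CDX2, HNF4A, small intestine, GFP). Chgb stands at 39.1 to 129 CPM in the CDX2 columns against 2.23 to 3.63 CPM in the GFP columns, and most transcription factors stay under 5 CPM throughout.

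In the CDX2 lines 1 of 23 tested members passed the test against the GFP lines. Pcsk1, prohormone convertase 1, rose, with a log2 fold change of 3.57 ± 0.63 (SE) and an adjusted p of 0.0498 by edgeR's quasi-likelihood test with Benjamini-Hochberg adjustment over all 12720 genes tested. Of all genes tested, 0.338% were called higher in this comparison. In bulk RNA, fewer cells of a type and less RNA per cell cannot be told apart, so this holds for every level given here. The call for Pcsk1 was kept without CDX2 line 3 (adjusted p 0.0237) and lost without any 1 of the other 10 libraries (adjusted p 0.0585 to 0.226). Lines with the same number deviated together among the gastric lines, and with line number as a block 7 of 23 members rose: Chgb, Scg2, Pcsk1, Cck, Sct, Tph1 and Ddc. Under that block 2.59% of all genes were called higher. The block also joined the small intestine lines by number, though their same-number correlations with the gastric lines were only -0.088 to 0.118. DESeq2, run without that filter on all 31 members, called 9 higher, these 7 with Chga and Pyy, where it called 2.53% of the 13349 genes that got an adjusted p. No member was called lower in the CDX2 lines by edgeR, where 0.0708% of all genes were, by the block or by DESeq2.

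At an unadjusted edgeR p under 0.05 there were 13 of 23 members, against 11.2% of all genes. Only 11 members had enough counts for a fit of the CDX2 and GFP lines alone, and the rest entered through the wider set of lines, so the count describes the genes that could be tested and supports no direction for the whole list. By role, edgeR, the block and DESeq2 called 1, 3 and 4 of 9 granin and processing genes, 0, 0 and 0 of 10 transcription factors, 0, 2 and 3 of 10 hormones, and 0, 2 and 2 of 2 amine enzymes. Of these listed genes, edgeR and the block tested only 5 granin and processing genes, 8 factors, 8 hormones and 2 amine enzymes.

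Among the granins, Chgb (chromogranin B, chromosome 2, 132781642 to 132795079) had 50.9, 129 and 39.1 CPM in CDX2 lines 1, 2 and 3, 8.60, 11.9 and 56.9 CPM in the HNF4A lines and 13.5 and 44.2 CPM in the small intestine lines, against 3.63, 2.23 and 2.45 CPM in the GFP lines. Every library of the other 3 groups was above every GFP line. Such separations among the lines, here and below, only describe levels, and the share of all genes that separate likewise is not reported here. The means were 72.8 ± 48.6 CPM in the CDX2 lines and 2.77 ± 0.75 CPM in the GFP lines (SD, n = 3 each). Its log2 fold change was 4.71 ± 0.87, with an adjusted p of 0.0595 by edgeR, 0.0286 with the line block and 2.48e-08 by DESeq2. Chgb passed the edgeR test without CDX2 line 3 and without HNF4A line 3.

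Chga, chromogranin A and the common marker of endocrine cells, had 4.93, 8.57 and 6.00 CPM in CDX2 lines 1, 2 and 3, 0.465, 1.13 and 5.04 CPM in the HNF4A lines and 1.30 and 3.73 CPM in the small intestine lines, against 0.640, 0.957 and 0.123 CPM in the GFP lines. The CDX2 lines were all above the GFP lines, while HNF4A line 1 lay among them. The log2 fold change of CDX2 over GFP lines was 3.45 ± 0.95, with an adjusted p of 0.175 by edgeR and 0.0071 by DESeq2. Scg2, secretogranin II, had 2.61, 9.05 and 4.42 CPM in the CDX2 lines, 0.697, 0.906 and 3.40 CPM in the HNF4A lines and 0.373 and 1.32 CPM in the small intestine lines, against 0.213, 0.213 and 0.613 CPM in the GFP lines. Its CDX2 and HNF4A lines were apart from the GFP lines, and small intestine line 1 was not. In the CDX2 lines its log2 fold change was 3.92 ± 0.91, with an adjusted p of 0.105 by edgeR and 0.0229 with the block.

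Pcsk1 (chromosome 13, 75089420 to 75134861), which makes the first cuts in many prohormones, had 4.63, 4.71 and 1.74 CPM in CDX2 lines 1, 2 and 3, 1.63, 0.679 and 1.5 CPM in the HNF4A lines and 4.01 and 3.51 CPM in the small intestine lines, against 0.320, 0.213 and 0.368 CPM in the GFP lines. All 8 libraries without GFP were above the 3 with it. The means were 3.69 ± 1.69 CPM in the CDX2 lines and 0.300 ± 0.079 CPM in the GFP lines (SD, n = 3 each). Cpe, carboxypeptidase E, which trims basic residues from cut prohormones and is not restricted to endocrine cells, had 24.3, 34.7 and 70.5 CPM in the CDX2 lines, 66.5, 82.2 and 81.1 CPM in the HNF4A lines and 6.52 and 34.9 CPM in the small intestine lines, against 20.7, 49.3 and 63.8 CPM in the GFP lines. CDX2 and GFP lines overlapped, with a log2 fold change of -0.05 ± 0.60. Scg3, Scg5, Pcsk2 and Pcsk1n, the remaining granule genes, stayed under 1 CPM in every line and were not tested.

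**Figure D2:**
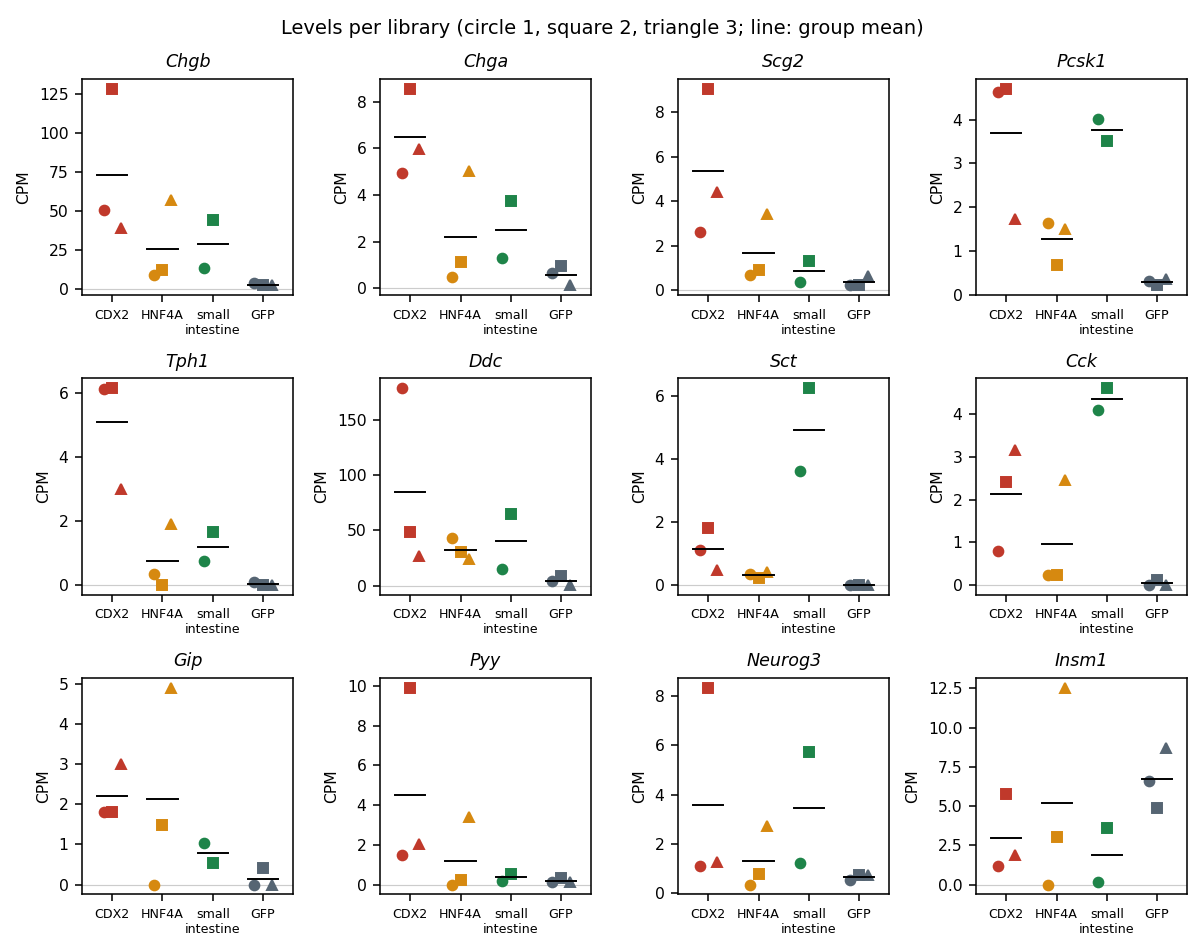
Level in CPM of 12 endocrine genes in each line (circle, square and triangle for lines 1, 2 and 3; the horizontal line is the group mean), for CDX2, HNF4A, small intestine and GFP from left to right. For Tph1 the CDX2 lines lie between 3.00 and 6.15 CPM and the GFP lines between 0 and 0.107 CPM. For Insm1 the GFP lines lie between 4.89 and 8.70 CPM, overlapping the CDX2 and HNF4A lines and above both small intestine lines (0.186 and 3.62 CPM).

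Of the 8 transcription factors tested, edgeR, the block and DESeq2 called none in the CDX2 lines. Neurog3, the factor that starts the endocrine fate, had 1.11, 8.33 and 1.26 CPM in CDX2 lines 1, 2 and 3, 0.349, 0.793 and 2.72 CPM in the HNF4A lines and 1.21 and 5.71 CPM in the small intestine lines, against 0.534, 0.744 and 0.735 CPM in the GFP lines. CDX2 line 2 stood above lines 1 and 3, and the log2 fold change over GFP lines was 2.39 ± 1.04 with an adjusted p of 0.417. Insm1, a zinc finger repressor of endocrine progenitors, had 1.21, 5.79 and 1.89 CPM in the CDX2 lines, 0, 3.06 and 12.5 CPM in the HNF4A lines and 0.186 and 3.62 CPM in the small intestine lines, against 6.62, 4.89 and 8.70 CPM in the GFP lines. CDX2 and GFP lines overlapped through CDX2 line 2, and the log2 fold change was -1.18 ± 1.30 with an adjusted p of 0.818. Pax6, a paired-box factor, had 0.201, 1.69 and 0.947 CPM in the CDX2 lines, 0.116, 0.679 and 1.77 CPM in the HNF4A lines and 0.0931 and 0.439 CPM in the small intestine lines, against 0.213, 0.213 and 0.368 CPM in the GFP lines, and all groups overlapped.

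Neurod1, Nkx2-2 and Rfx6, factors that act after Neurog3 starts the lineage, had their highest line levels, 2.53, 2.41 and 2.59 CPM, in CDX2 line 2 for the first pair and in HNF4A line 3 for Rfx6. Pax4, an early factor, had reads in CDX2 line 2 alone (4 reads, 0.483 CPM) among all 20 libraries. Isl1, a LIM homeodomain factor, was highest at 2.31 CPM in HNF4A line 3, and Fev, of the serotonergic lineage, was highest at 1.21 CPM in CDX2 line 2. Lmx1a, a factor of enterochromaffin cells, had 12 reads over the CDX2 lines and 0 over the GFP lines, so it was at least 4.39-fold higher (3 reads over the group as the limit), and it was not tested.

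Of the intestinal hormone genes, Sct, Cck, Gcg, Gip and Pyy had reads in every CDX2 line and at most 0.425 CPM in a GFP line, and Nts had none in either. Sct, secretin, the S cell hormone (chromosome 7, 141278329 to 141279174), had 1.11, 1.81 and 0.473 CPM in CDX2 lines 1, 2 and 3, 0.349, 0.226 and 0.408 CPM in the HNF4A lines and 3.63 and 6.26 CPM in the small intestine lines, against 0 in all 3 GFP lines. With 29 reads over the CDX2 lines and 0 over the GFP lines it was at least 10.6-fold higher in CDX2 lines, with an adjusted p of 0.0706 by edgeR and 0.0391 with the block. Cck, cholecystokinin, the I cell hormone (chromosome 9, 121489824 to 121495694), had 0.804, 2.41 and 3.16 CPM in the CDX2 lines, 0.232, 0.226 and 2.45 CPM in the HNF4A lines and 4.10 and 4.61 CPM in the small intestine lines, against 0, 0.106 and 0 CPM in the GFP lines. The CDX2 and GFP lines did not overlap. A single read over the GFP lines gave a ratio of 52.6 (95% counting interval 9.0 to 2.12e+03), with an adjusted p of 0.135 by edgeR and 0.0333 with the block.

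Pyy, peptide YY of ileal and colonic L cells, had 1.51, 9.89 and 2.05 CPM in CDX2 lines 1, 2 and 3, 0, 0.226 and 3.40 CPM in the HNF4A lines and 0.186 and 0.549 CPM in the small intestine lines, against 0.107, 0.319 and 0.123 CPM in the GFP lines. CDX2 line 2 was the highest of all, and the CDX2 and GFP lines did not overlap. The log2 fold change was 4.5 ± 1.5, with an adjusted p of 0.27 by edgeR and 0.0399 by DESeq2. Gcg, proglucagon, the GLP-1 precursor (chromosome 2, 62474530 to 62483653), had 0.101, 0.845 and 0.473 CPM in the CDX2 lines, 0, 0.113 and 0.817 CPM in the HNF4A lines and 2.24 and 1.43 CPM in the small intestine lines, against 0 in all 3 GFP lines. Its 11 reads over the CDX2 lines made it at least 4.02-fold higher than in the GFP lines, and it was not called. Gip, the incretin of K cells, ran from 1.81 to 3.00 CPM in the CDX2 lines and from 0 to 0.425 CPM in the GFP lines, without overlap, with a log2 fold change of 3.79 ± 1.5 and an adjusted p of 0.364.

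Gastric hormones gave overlapping groups. Ghrl, ghrelin, ran from 1.58 to 4.02 CPM in the CDX2 lines and from 0.532 to 2.45 CPM in the GFP lines, with a log2 fold change of 1.37 ± 0.78 and an adjusted p of 0.582. Sst, somatostatin, ran from 0.302 to 4.83 CPM in the CDX2 lines and from 0.213 to 0.980 CPM in the GFP lines. Gast, the gastrin gene of antral G cells, was too low to test, at 0 to 0.603 CPM in the CDX2 lines and 0.213 to 0.319 CPM in the GFP lines. Tac1, the substance P precursor, ran from 0.101 to 2.29 CPM in the CDX2 lines and from 0 to 0.744 CPM in the GFP lines. Nts, neurotensin, was at 0 in all CDX2 and GFP lines.

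For amine synthesis, Tph1, the rate-limiting enzyme of serotonin synthesis in enterochromaffin cells (chromosome 7, 46644641 to 46672537), had 6.13, 6.15 and 3.00 CPM in CDX2 lines 1, 2 and 3, 0.349, 0 and 1.91 CPM in the HNF4A lines and 0.745 and 1.65 CPM in the small intestine lines, against 0.107, 0 and 0 CPM in the GFP lines. All CDX2 lines were above every other line. With 131 reads over the CDX2 lines and 1 over the GFP lines the ratio was 144 (95% counting interval 25.3 to 5.72e+03), with an adjusted p of 0.0888 by edgeR and 0.0391 with the block. Ddc, aromatic amino acid decarboxylase (chromosome 11, 11814101 to 11898144), had 178, 49.0 and 26.7 CPM in the CDX2 lines, 43.2, 30.4 and 23.8 CPM in the HNF4A lines and 14.9 and 65.2 CPM in the small intestine lines, against 3.95, 9.14 and 0.735 CPM in the GFP lines. The GFP lines were below all others. In the CDX2 lines its log2 fold change was 4.18 ± 0.96, with an adjusted p of 0.103 by edgeR and 0.0354 with the block. Ddc is also made by absorptive cells of the gut, and the summed level of 10 enterocyte genes was 578 to 1463 CPM in the CDX2 lines, against 316 to 393 CPM in the GFP lines. Its part in the level of Ddc was not tested.

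**Figure D3:**
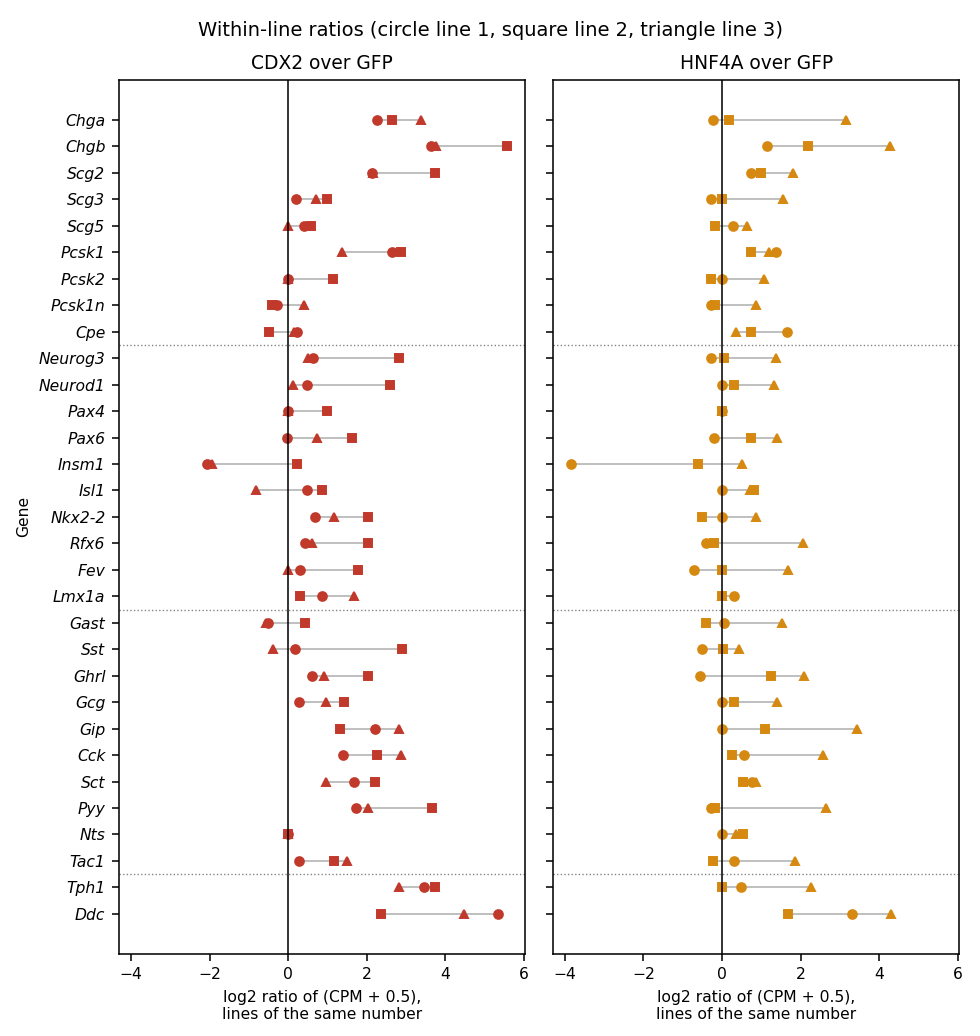
Log2 ratio of (CPM + 0.5) between lines of the same number for each of the 31 genes, CDX2 over GFP and HNF4A over GFP, with a point for each of the 3 line numbers. Chgb has ratios of 3.64, 5.56 and 3.75 for CDX2 and of 1.14, 2.18 and 4.28 for HNF4A, and Insm1 has ratios on both sides of 0 in both.

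Other cell types were measured beside these genes. The summed level of 7 tuft cell genes, of the other chemosensory epithelial cell, was 13.3 to 65.2 CPM in the CDX2 lines, against 96.5 to 277 CPM in the GFP lines. Goblet cell genes summed to 251 to 531 CPM in the CDX2 lines, against 352 to 520 CPM in the GFP lines, but edgeR called 2 of 8 tested higher, the trefoil factor Tff3 (log2 fold change 7.28, adjusted p 0.0346) and the mucus protein Fcgbp (4.80, adjusted p 0.0327). Of 9 tested enterocyte genes it called the cadherin Cdh17 (7.18, adjusted p 0.00625) and the glucose transporter Slc5a1 (3.43, adjusted p 0.0419) higher. The sums of 14 neural and glial genes were 4.02 to 14.7 CPM in the CDX2 lines, against 8.11 to 14.9 CPM in the GFP lines. The part of these cells in the endocrine levels was not tested. Among further endocrine genes, edgeR called none of 4 tested among other hormones and amine enzymes, none of 15 among granule and exocytosis genes, none of 12 among lineage factors, none of 4 among nutrient sensors and none of 14 in the Notch pathway in CDX2 over GFP lines. The line block called Syt7, a synaptotagmin of granule release, Foxa2, Prox1 and the Notch ligand Jag1. These are calls in either direction, which the block gave for 578 of 12720 genes. Genes called by DESeq2 included Slc18a1 (a vesicular monoamine transporter), Syt7, Atoh1 (the secretory lineage factor), Foxa2 and Jag1. Atoh1 had 1.91, 1.57 and 0.789 CPM in the CDX2 lines, against 0 in all GFP lines.

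In the HNF4A lines edgeR called none of 23 members against the GFP lines, where it called 18 of all genes (0.142%). The HNF4A and CDX2 comparisons share their GFP lines. DESeq2 called Chgb (adjusted p 0.0011) and Ddc (0.0337), where it called 1.47% of all genes higher, and the line block called no member in either direction, against 0.723% of all genes higher. At an unadjusted p under 0.05 there were 8 of 23 members, against 5.76% of all genes. Just 5 members had enough counts for a fit of the HNF4A and GFP lines alone, and the rest entered through the wider set of lines. That count of 8 therefore supports no direction for the whole list. HNF4A line 3 was the highest of its group for most members. In line 1 several members were below GFP line 1, such as Chga (0.465 CPM in HNF4A, 0.640 CPM in GFP), Ghrl (1.51 CPM in HNF4A, 2.45 CPM in GFP) and Insm1 (0 CPM in HNF4A, 6.62 CPM in GFP).

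Chgb averaged 25.8 ± 27.0 CPM in the HNF4A lines and 2.77 ± 0.75 CPM in the GFP lines (SD, n = 3 each), a spread set by HNF4A line 3. Its log2 fold change was 3.21 ± 0.83 with an adjusted p of 0.265 by edgeR, and 1.88 with an adjusted p of 0.393 without that line. Ddc, lower in HNF4A line 3 than in lines 1 and 2, averaged 32.5 ± 9.87 CPM in the HNF4A lines and 4.61 ± 4.24 CPM in the GFP lines. Its log2 fold change was 2.80 ± 0.92 with an adjusted p of 0.505. Pcsk1 had a log2 fold change of 2.03 ± 0.63 with an adjusted p of 0.433. Cpe averaged 76.6 ± 8.80 CPM in the HNF4A lines and 44.6 ± 21.9 CPM in the GFP lines, with a log2 fold change of 0.78 ± 0.60. Sct, with 8 reads over the HNF4A lines, was at least 2.90-fold higher than in the GFP lines, and Gcg, with 7 reads, at least 2.54-fold. Counting either direction, the block and DESeq2 called Mlxipl, a glucose-sensing factor, among further endocrine genes, and DESeq2 also called Jag1. Over all genes the block gave 100 calls and DESeq2 219. Cdh17 was the marker of another cell type that edgeR called, with a mean of 103 CPM in the HNF4A lines and 3.24 CPM in the GFP lines (adjusted p 0.0368).

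Set against each other, CDX2 and HNF4A lines showed no called member by edgeR, limma-voom, the line block or DESeq2, where edgeR called 3 of all genes (0.0236%) and DESeq2 139 (1.04%). At an unadjusted p under 0.05 there were 3 of 23 members, against 5.18% of all genes: Pcsk1 (log2 fold change 1.54, unadjusted p 0.0201), Tph1 (2.78, unadjusted p 0.0265) and Sct (1.77, unadjusted p 0.042). A larger response to CDX2 than to HNF4A was thus not shown for any member at this spread. A fit of these lines alone could test 14 members, and the rest entered through the wider set of lines.

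In small intestine organoids 7 of 23 tested members rose over the GFP lines: the granule genes Chgb and Pcsk1, the hormones Gcg, Sct and Cck, and the amine enzymes Tph1 and Ddc. None was called lower, and the intestinal hormones Gip and Pyy were not called. Of all genes, 14.2% were called higher here and 12.9% lower. A fit of small intestine and GFP lines alone could test 11 members, and the rest entered through the wider set of lines. DESeq2 called the same 7 higher, where it called 16.0% of all genes higher. Sct, with 96 reads over the small intestine lines, was at least 43.4-fold higher, with an adjusted p of 0.00267 by edgeR. Gcg, with 37 reads, was at least 16.7-fold higher, with an adjusted p of 0.0257. Cck had a ratio of 117 to the single GFP read (95% counting interval 20.4 to 4.66e+03, adjusted p 0.00958). These 3 hormone genes thus had 37 to 96 reads over the small intestine lines and at most 1 over the GFP lines.

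Pcsk1 had a log2 fold change of 3.59 ± 0.66 with an adjusted p of 0.00549, Chgb one of 3.37 ± 0.88 with 0.0204, and Ddc one of 3.10 ± 0.98 with 0.0406. Tph1 had a ratio of 31.2 (95% counting interval 5.07 to 1.29e+03), with an adjusted p of 0.0484. Sct, Cck and Pcsk1 were called whichever small intestine or GFP line was left out, and each of the other 4 lost its call in some or all of these fits. Without small intestine line 1 the called members were Chgb and these 3, and without small intestine line 2 they were these 3 with Cpe, which was then lower. Without GFP line 1 Chgb joined the 3, without GFP line 2 Ddc did, and without GFP line 3 there were the 3 alone. Insm1 had a log2 fold change of -1.83 with an adjusted p of 0.394. Nts, an ileal hormone, had 0.838 and 0.658 CPM in the small intestine lines, at least 6.79-fold above the GFP lines at 0, and was too low to test. Gast had 0 reads in the small intestine lines and 7 in the GFP lines. Sst had 0.0931 and 0 CPM in the small intestine lines (1 read in all), below every GFP line (0.213 to 0.980 CPM, 12 reads), and was not called.

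Of the further endocrine genes, edgeR called Slc18a1 higher in small intestine (log2 fold change 1.61), 1 of 4 tested among other hormones and amine enzymes. Among 15 tested granule and exocytosis genes Syt7 rose (4.16), and Pam, the amidating enzyme, and Vamp2, a vesicle SNARE, fell (-1.03 and -0.97). Among 12 tested lineage factors Atoh1 (5.22 and 16.1 CPM in the small intestine lines, against 0 in the GFP lines) and Mlxipl (3.54) rose and 4 fell, among them Nkx6-3, an antral factor, and Foxa2 (-1.92). Of 4 tested nutrient sensors the fatty acid receptor Ffar4 (-1.36) and Gpr142 fell. Of 14 tested Notch genes Jag1 rose (2.44), and Notch3 (-2.17) and Notch1 (-1.04) fell. Markers of other cells were called too: goblet Fcgbp, Tff3 and Spink4 rose and Spdef fell, and enterocyte Cdh17, Slc5a1, Sis and Fabp2 rose. Gastric Muc6, Cldn18, Sox2 and Tff2, tuft Dclk1 and immune Cd68 fell, while immune Itgam, epithelial Krt8 and Cldn7, and Slc2a2, a glucose transporter of islets and enterocytes, rose. Their part in the endocrine levels was not tested.

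In antral organoids with HNF4A overexpression, deletion of the Cdx2 enhancer gave no called endocrine gene. None of 16 tested members passed in homozygous over wild-type, heterozygous over wild-type or homozygous over heterozygous libraries by edgeR, DESeq2, limma-voom or the line block. The edgeR test called 0.0% of all 12593 genes in each of the 3 comparisons, and DESeq2 called 1.32%, 2.3% and 0.00617% in that order. At an unadjusted p under 0.05 there was 1 of 16 members in homozygous over wild type (4.59% of all genes), 1 in heterozygous over wild type (8.93%) and 0 in homozygous over heterozygous (0.262%). The median log2 fold change over the members tested was -0.23, 0.13 and -0.68 in these comparisons. Without the 3 libraries richest in Wnt3a (homozygous 3, heterozygous 2 and 3), it was 0.0018, -1.77 and 1.45 over 17 members, so the direction of the list turned in the last pair of comparisons, where 1 heterozygous library was left.

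**Figure D4:**
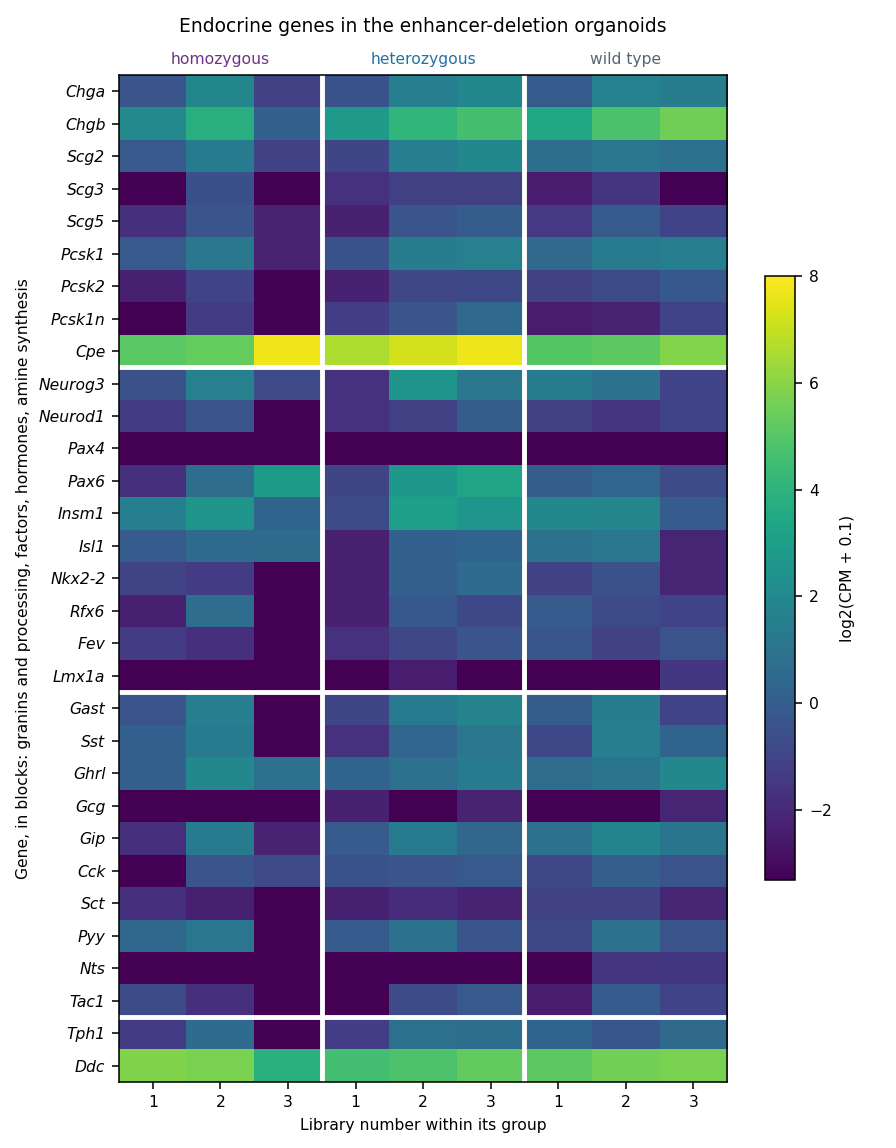
Level of the 31 endocrine genes in the 9 enhancer libraries, as log2(CPM + 0.1), with genes in rows by role and libraries in columns (homozygous, heterozygous, wild type). Homozygous library 3 and heterozygous library 1 are dark for most genes, being the lowest of their group for 15 of 20 and 24 of 25 members with at least 10 reads in the group.

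Libraries of the same genotype differed widely. Homozygous library 2 was the highest of its group for 16 of 20 members with at least 10 reads and library 3 the lowest for 15, with 14 members detected. Heterozygous library 1 was the lowest for 24 of 25 members. The 3 libraries homozygous 3 and heterozygous 2 and 3, also held 1809 to 3099 CPM of Wnt3a, a secreted growth signal of stem cell culture, against 95.1 to 196 CPM in the other homozygous and heterozygous libraries and 0 to 4.33 CPM in wild-type libraries. The summed level of 12 fibroblast genes was 37.6, 101 and 1098 CPM in homozygous libraries and 102, 848 and 1298 CPM in heterozygous libraries, against 6.21, 6.74 and 3.31 CPM in wild-type libraries. DESeq2 called 6 of 7 tested fibroblast genes higher in both homozygous and heterozygous over wild-type libraries (Col1a1, Col3a1, Col6a3, Sparc, Vim and Pdgfrb), and edgeR called none. Col1a1, a collagen chain, averaged 97.5 CPM in homozygous and 179 CPM in heterozygous libraries, against 1.34 CPM in wild-type libraries. Of the 12 genes Lum was at 0 in all libraries, and Thy1 in homozygous and wild-type ones.

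Chgb was the member with an unadjusted p under 0.05 in homozygous libraries. It had 3.98, 14.1 and 1.05 CPM in homozygous libraries 1, 2 and 3 and 6.81, 17.2 and 25.5 CPM in heterozygous libraries, against 11, 27.0 and 45.9 CPM in wild-type libraries. Homozygous library 2 lay above wild-type library 1, so the groups overlapped. Homozygous libraries averaged 6.39 ± 6.86 CPM, against 28.0 ± 17.5 CPM for wild type (SD, n = 3 each). That gave a log2 fold change of -2.11 ± 0.86, with an unadjusted p of 0.0363 and an adjusted p of 0.999 by edgeR. Without the 3 libraries rich in Wnt3a, an alternative chosen after seeing the data, it was -1.61 ± 0.74.

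Cpe was the member with an unadjusted p under 0.05 in heterozygous libraries. It had 33.8, 40.0 and 213 CPM in homozygous and 97.8, 148 and 212 CPM in heterozygous libraries, against 31.7, 35.3 and 60.2 CPM in wild-type libraries. Its heterozygous and wild-type libraries did not overlap, the only such case in this comparison among the 16 tested members, against 8.76% of all genes higher and 6.15% lower. The log2 fold change was 1.85 ± 0.68, with an unadjusted p of 0.0232 and adjusted p of 0.498 by edgeR, 0.132 with the block and 0.0878 by DESeq2. Without the libraries rich in Wnt3a, heterozygous library 1 alone gave 1.21 ± 0.34, under the assumption that it varies like the others. Pax6 had 0.199, 1.56 and 7.02 CPM in homozygous and 0.419, 6.49 and 9.54 CPM in heterozygous libraries, against 0.899, 1.20 and 0.509 CPM in wild-type libraries. Its 3 highest values were in the 3 libraries richest in Wnt3a. The heterozygous log2 fold change was 2.63 ± 1.25 with an adjusted p of 0.584, and -1.04 ± 1.33 without those libraries. Cpe and Pax6 were both highest in the 3 libraries with the highest fibroblast sums. In the other libraries Pax6 had few reads: 2 and 16 in homozygous libraries 1 and 2, 4 in heterozygous library 1, and 10, 10 and 4 in wild-type libraries. Cpe ran from 31.7 to 97.8 CPM in these libraries and was highest in heterozygous library 1. The part of the fibroblast sum in their levels was not tested.

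**Figure D5:**
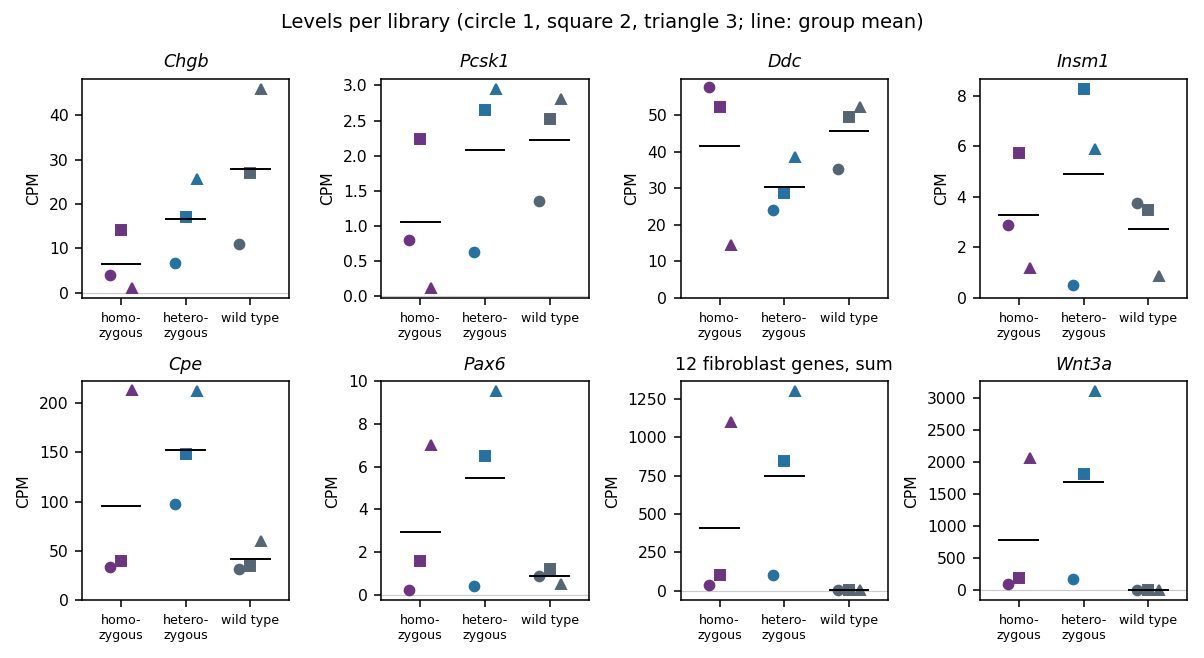
Level in CPM of 6 endocrine genes, of 12 fibroblast genes summed and of Wnt3a in each enhancer library (circle, square and triangle for libraries 1, 2 and 3; the horizontal line is the group mean), for homozygous, heterozygous and wild type from left to right. Ddc lies between 14.4 and 57.8 CPM in all groups, and the fibroblast sum is at least 37.6 CPM in every library with the deletion, against at most 6.74 CPM in wild type.

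Chga, Scg2 and Pcsk1 overlapped between genotypes. Chga had 0.697, 3.61 and 0.351 CPM in homozygous and 0.629, 2.82 and 3.75 CPM in heterozygous libraries, against 0.809, 3.13 and 2.67 CPM in wild-type libraries. Scg2 had 0.796, 2.53 and 0.351 CPM in homozygous and 0.419, 2.82 and 3.75 CPM in heterozygous libraries, against 1.62, 2.05 and 1.65 CPM in wild-type libraries. Pcsk1 had 0.796, 2.24 and 0.117 CPM in homozygous and 0.629, 2.65 and 2.95 CPM in heterozygous libraries, against 1.35, 2.53 and 2.80 CPM in wild-type libraries. For all of these, homozygous library 3 was the lowest of the 9. Pcsk1n, a convertase inhibitor too low to test, had 0, 3 and 0 reads in homozygous libraries, against 3, 8 and 12 reads in heterozygous libraries. These groups met at 3 reads, the limit that a count of 0 allows.

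Among the factors, Neurog3 had 0.597, 2.92 and 0.468 CPM in homozygous and 0.210, 5.72 and 2.16 CPM in heterozygous libraries, against 2.70, 1.80 and 0.382 CPM in wild-type libraries. Insm1 had 2.89, 5.75 and 1.17 CPM in homozygous and 0.524, 8.28 and 5.90 CPM in heterozygous libraries, against 3.78, 3.49 and 0.891 CPM in wild-type libraries. Both were highest in heterozygous library 2, and their groups overlapped. Isl1 ran from 0.105 to 2.05 CPM over the 9 libraries. Neurod1, Nkx2-2, Rfx6 and Fev stayed under 2 CPM and were not tested, Lmx1a had at most 2 reads in a library, and Pax4 had none. Fev had 3, 2 and 0 reads in homozygous and 8, 3 and 5 reads in wild-type libraries, so these groups met at 3 reads, the limit that a count of 0 allows.

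For serotonin synthesis, Tph1 had 0.299, 1.46 and 0 CPM in homozygous and 0.314, 1.71 and 1.59 CPM in heterozygous libraries, against 1.17, 0.722 and 1.40 CPM in wild-type libraries. Ddc had 57.8, 52.2 and 14.4 CPM in homozygous and 24.2, 28.9 and 38.5 CPM in heterozygous libraries, against 35.3, 49.6 and 52.2 CPM in wild-type libraries. Neither separated the genotypes. Pyy had 1.29, 2.05 and 0 CPM in homozygous and 0.838, 1.79 and 0.681 CPM in heterozygous libraries, against 0.450, 1.80 and 0.636 CPM in wild-type libraries, and was not called either.

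The intestinal hormones that set small intestine apart were barely detected in these antral organoids. Sct had 0.199, 0.0974 and 0 CPM in homozygous and 0.105, 0.171 and 0.114 CPM in heterozygous libraries, against 0.360, 0.361 and 0.127 CPM in wild-type libraries. Gcg had 0 reads in homozygous, 2 in heterozygous and 1 in wild-type libraries. Cck had 0, 0.682 and 0.468 CPM in homozygous and 0.629, 0.683 and 0.795 CPM in heterozygous libraries, against 0.450, 0.963 and 0.636 CPM in wild-type libraries. These 3 genes were too low to test here. Gast, the antral hormone, had 0.697, 2.73 and 0 CPM in homozygous and 0.419, 2.39 and 3.29 CPM in heterozygous libraries, against 0.899, 2.65 and 0.382 CPM in wild-type libraries, and its groups overlapped. Sst, Ghrl and Gip ran over the 9 libraries from 0 to 2.77, from 0.995 to 3.82 and from 0.117 to 3.37 CPM. Over the further endocrine lists edgeR called no gene in the 3 comparisons. Counting either direction, DESeq2 called 4 in heterozygous over wild-type libraries, where it called 2.3% of all genes. These were the granule genes Vgf and Syt13 and the factors Etv1 and Rcor2, and none was called in the other comparisons.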

How the data were processed

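The authors deposited raw counts of reads per gene in a table of 20 columns, made from poly-A RNA sequenced in paired ends, per the labels' protocols. STAR and mm10 are named in the submitters' processing notes, with Bowtie2, Cell Ranger and hg19 beside them for the lines. The read counter, gene annotation and strand setting were not given in the sources used here. Each experiment was fitted with edgeR 4.0.16 in R 4.3.3 (TMM, filterByExpr with a minimum count of 10 and total of 15, robust quasi-likelihood F test, 2-sided), all groups sharing 1 estimate of spread. Benjamini-Hochberg adjusted p under 0.05 over all genes tested was a call, and a standard error is the log2 fold change over the square root of F. DESeq2 1.42.0 and limma-voom 3.58.1 were alternatives, as were other scaling, no filter, a line block, fits of 2 groups and leaving out each library. The scripts were tested on simulated data. Same-numbered gastric lines correlated in their deviations (0.336 to 0.751 over 9 pairs), so these numbers were taken to pair samples. That pairing is read from the data, and the labels give only the numbers. Same-numbered homozygous and heterozygous libraries correlated at 0.188 to 0.530 over 3 pairs. With unlike numbers, homozygous 3 and heterozygous 2 reached 0.213, and heterozygous 2 and wild type 1 reached 0.417. These values do not settle whether numbers pair samples in the enhancer experiment, where the block used them as well. The members and all gene lists were chosen with earlier results of these data known. Values in every library are given for members called by edgeR or DESeq2 or reaching 5 CPM, and of the further listed genes those called by edgeR are named, at most 4 per list. Counting intervals are exact at 95%. They and the 3-count limits cover counting error only. Some of the further listed genes are not reported here.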

Additional observations from a re-analysis of the deposited data

How the results depend on the processing

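In CDX2 over GFP lines, where 1 member was called, DESeq2 called 9, the replicate block 7, and limma-voom, RLE size factors and no low-count filter 0 each; leaving out each library gave 0 to 3. A fit of CDX2 and GFP lines alone also called 1, but it was Chgb. In HNF4A over GFP lines DESeq2 called 2 members against 0, and in small intestine over GFP lines limma-voom called 4 against 7 and the leave-outs 3 to 7. Small intestine pairs correlated at -0.088 to 0.118 and wild-type enhancer pairs at -0.290 to 0.244, so there the replicate block joins samples that share only a number. As the block was fitted over all libraries of an experiment, every block call rests on a fit with such joins. The block called 8 of 23 members in small intestine over GFP lines (Tac1 added), where it called 4966 of all 12720 genes in either direction. No member was called in CDX2 over HNF4A lines or in any enhancer comparison under any alternative tried. Over all genes, CDX2 over GFP lines gave 52 calls by edgeR, 483 by DESeq2, 4 by limma-voom, 578 with the block and 14 with only these groups. HNF4A over GFP lines gave 18, against 219 by DESeq2, 5 by limma-voom and 100 with the block. CDX2 over HNF4A lines gave 3, against 139 by DESeq2, 28 with the block and 0 with only these groups. Small intestine over GFP lines gave 3448, against 4450 by DESeq2, 3340 by limma-voom, 4966 with the block and 833 without small intestine line 1. The 3 enhancer comparisons gave 0 each, against 181, 337 and 1 by DESeq2 and 5, 51 and 0 with the block. Of 303 values of 18 single-member results under alternatives, none changed sign, 44 lost their call and 21 gained one; these are members called by some tool in the lines, and others can turn, as Pax6 did in heterozygous over wild-type libraries. The cause of these differences was not tested. A level under 0.256 to 0.473 CPM, by library, is within the limit that a count of 0 allows.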
